A study of Mus musculus with 8 samples.

Results

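The fibrillar collagen genes Col1a1, Col1a2, Col3a1 and Col5a2 were followed through reprogramming of mouse fibroblasts by their 5-hydroxymethylcytosine (5hmC) peaks. The members are the peaks of all 8 deposited lists that overlap 3 windows given in mm9 coordinates, chr11:94790000-94820000 for Col1a1, chr6:4450000-4497000 for Col1a2 and chr1:45360000-45570000 for Col3a1 and Col5a2 together. They number 119 of the 684512 peaks in all lists, with 57 in the Col1a1 window, 15 in the Col1a2 window and 47 in the Col3a1 and Col5a2 window. The windows span 30.0, 47.0 and 210.0 kb and hold flanking sequence as well as the genes. An mm9 gene annotation was not used here, so peaks are given by position and not as promoter, exon or intron.

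The starting cells were mouse embryonic fibroblasts (MEF). Reprogramming intermediates were profiled at D1, D3 and D5, read as days, with the OySyNyK method and with the OSNK method. OSNK stands in the study for Oct4, Sox2, Nanog and Klf4, and OySyNyK for the same set with the first 3 factors fused to a domain of YAP. The end point was a mouse induced pluripotent stem cell (iPSC) sample whose title carries the OySyNyK factor names. Per the labels' protocols, medium for iPSC generation held vitamin C and leukemia inhibitory factor, and iPSC were kept on mitomycin C-treated MEF feeder cells. Strain, sex, age and the promoter that drives the factors are not stated in the labels, and how far feeder cells contributed DNA to the iPSC library was not tested. Each group is 1 library, so no difference below has a replicate check. The only p-value is that of a pairing by day, which takes days as replicates. The lists hold no RNA values, and the fibroblast label was not checked against expressed markers.

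Fibrillar collagens are the rope-like proteins of the extracellular matrix and are a hallmark product of fibroblasts. Col1a1 and Col1a2 encode the chains of type I collagen, the main collagen of skin and bone. Col3a1 encodes type III collagen, which is found with type I in distensible tissue, and Col5a2 encodes a chain of type V collagen, which takes part in the assembly of type I fibrils. 5hmC is made from 5-methylcytosine by TET enzymes, lies mostly at CpG dinucleotides in mammals and is often found over active gene bodies and enhancers. Col3a1 and Col5a2 are neighbours in the GRCm38 gene table, with no other gene between them.

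The RefSeq promoter table held 2 of the 4 genes, and the 250 bases before their starts are shown to compare how many CpG sites, the usual substrate of 5hmC, lie next to each start. Both are on the plus strand of GRCm38.p6, at chr6:4505368-4505617 for Col1a2 and chr1:45311288-45311537 for Col3a1, a different build from that of the peak lists, so these stretches were not placed among the peaks. Capitals mark CpG, which reads the same on both strands.
Col1a2: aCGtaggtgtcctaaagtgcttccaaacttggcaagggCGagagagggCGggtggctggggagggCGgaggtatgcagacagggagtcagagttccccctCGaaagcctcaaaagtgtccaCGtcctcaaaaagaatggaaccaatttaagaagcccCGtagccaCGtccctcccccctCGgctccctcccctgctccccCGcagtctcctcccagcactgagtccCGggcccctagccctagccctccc
Col3a1: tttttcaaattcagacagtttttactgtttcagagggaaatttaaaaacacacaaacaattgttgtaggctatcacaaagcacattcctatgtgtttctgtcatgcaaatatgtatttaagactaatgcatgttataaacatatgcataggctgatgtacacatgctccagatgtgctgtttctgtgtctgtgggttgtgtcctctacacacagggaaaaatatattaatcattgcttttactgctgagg
The Col1a2 stretch held 11 CpG sites, and 35.6% of the 32851 promoters in the table held at least as many. The Col3a1 stretch held 0, whereas 92.1% of promoters held at least 1.

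The lists differed in length and score. They held between 54938 peaks in iPSC and 116302 at OSNK D1, and covered between 1.56% of the spanned genome in iPSC and 3.72% at OSNK D3. The score of a peak is the authors' value, in MACS -10 times the log10 of its p-value, and no list held a score under 50. The median score lay between 71.0 in iPSC and 105 at OSNK D1. Sequencing depth is unknown, so cover of a window is given beside cover of the whole genome in the same list. The lists hold peaks above a minimum score only, and a window without a peak is not shown to lack 5hmC. In a bulk culture, fewer cells carrying the mark and less of the mark per cell cannot be told apart.

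The Col1a1 window was among the most densely covered stretches of the fibroblast genome, while the other windows were not. In MEF, 6 peaks covered 13631 bp of the Col1a1 window, which is 45.4% and 19.0 times the genome-wide cover of that list. Of 87899 tiles of the same length across the genome, 68 (0.0774%) had at least as much cover in MEF. The Col1a2 window was covered to 4.51% by 2 MEF peaks, 1.89 times the genome-wide value, and 17.5% of tiles of its length had at least as much. The Col3a1 and Col5a2 window was covered to 2.28% by 7 MEF peaks, 0.953 times the genome-wide value, with 33.9% of tiles at least as high. The windows of type I collagen's 2 genes, which differ in length and hold flanking sequence, thus stood far apart in peak cover in the same fibroblast library. With peaks of 500 bp the MEF cover was 10.0% in the Col1a1 window and 2.13% in the Col1a2 window. Peaks in the Col1a1 window were also wider, with a median of 1886.5 bp in MEF against 841 bp over the whole MEF list.

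**Figure D1:**
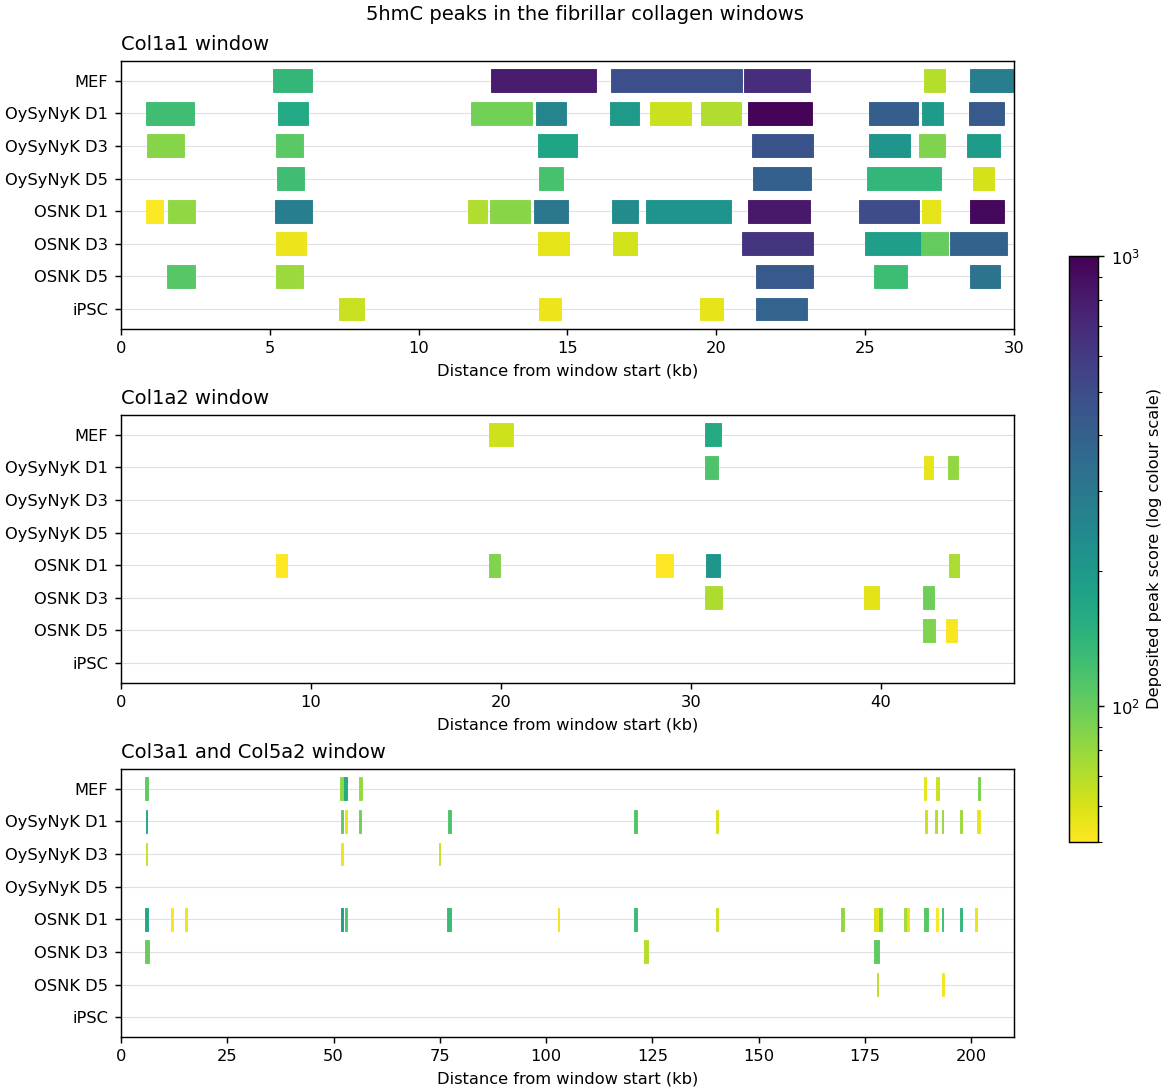
Peaks of each list in the 3 windows, with distance from the window start in kb on the x axis, 1 library per row and the deposited score as colour on a log scale. The Col1a1 window holds 57 of the 119 peaks and is filled in every library, whereas the other windows hold no peak at OySyNyK D5 or in iPSC.

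From the start to the end of reprogramming, all 3 windows held less peak cover in iPSC than in MEF. The Col1a1 window was covered to 13.5% in iPSC and 45.4% in MEF, a difference of -31.9 percentage points. The Col1a2 window held no peak in iPSC and was covered to 4.51% in MEF. The Col3a1 and Col5a2 window held no peak in iPSC and was covered to 2.28% in MEF. All 3 windows were therefore lower by 2-fold or more. That was common in the genome: of tiles of 30 kb covered in MEF, 66.6% were lower by 2-fold or more or without cover in iPSC, as were 63.7% of tiles of 47 kb and 59.0% of tiles of 210 kb. Nearly all of these 30 kb tiles had less MEF cover than the Col1a1 window, which 68 of 87899 tiles matched or passed. Tiles of like cover were not compared. The iPSC list itself covered 0.653 times the sequence of the MEF list. Relative to its own list, the Col1a1 window still stood at 8.67 times the genome-wide cover in iPSC, and 2.28% of tiles had at least as much. With all peaks set to 500 bp, the Col1a1 difference was -3.33 percentage points, the window then holding 4 peaks of that width in iPSC and 6 in MEF, which is short of 2-fold.

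By day, the Col1a1 window had its highest cover at D1 and less on each later day with both methods. With OySyNyK it was covered to 50.3% at D1, 29.6% at D3 and 22.9% at D5. With OSNK it was covered to 51.4%, 33.1% and 19.6% on these days. The MEF value of 45.4% was slightly below both D1 values, while D3, D5 and iPSC all lay below MEF with peaks as deposited. This order of D1 and MEF depended on list length: with equal numbers of peaks the D1 values were 41.2% with OySyNyK and 37.8% with OSNK, against 45.4% in MEF. Relative to the whole list, the window stood at 17.2, 10.5 and 10.5 times the genome-wide cover with OySyNyK and at 14.8, 8.89 and 7.36 times with OSNK, against 19.0 times in MEF. With peaks of 500 bp the order of the methods at D3 ended, each having 7 peaks and 11.7% cover, against 6 peaks in MEF, so D3 then lay above MEF. At D5, OSNK was lower than MEF by 2.32-fold, past the 2-fold line that 42.5% of tiles of that length covered in MEF also passed. OySyNyK D5 was 1.98-fold lower than MEF, just short of a line passed by 50.4% of tiles, and it passed that line among peaks scoring 100 or more, with 20.6% at OySyNyK D5 and 43.1% in MEF. With peaks of 500 bp neither D5 list passed it, each having 5 peaks and 8.33% cover, against 6 peaks in MEF.

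The Col1a2 window went to no listed peak sooner with OySyNyK. With OySyNyK it was covered to 3.66% by 3 peaks at D1 and held none at D3, at D5 or in iPSC. With OSNK it was covered to 7.0% by 5 peaks at D1, 4.94% by 3 peaks at D3 and 2.52% by 2 peaks at D5. All 15 peaks of this window scored 207 or less, and when peaks scoring under 100 were left out it held 1 peak in MEF, 1 in each D1 list and none later. Of tiles of 47 kb covered in MEF, 35.5% were lower by 2-fold or more or without cover at OySyNyK D3, and 27.9% were at OSNK D3.

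The Col3a1 and Col5a2 window had its highest cover at D1 with both methods. With OySyNyK it was covered to 2.90% by 12 peaks at D1 and 0.513% by 3 peaks at D3, and held none at D5. With OSNK it was covered to 5.54% by 20 peaks at D1, 1.34% by 3 peaks at D3 and 0.375% by 2 peaks at D5. OSNK D1 was higher than MEF by 2.44-fold, and 34.2% of tiles of 210 kb were higher by 2-fold or more or newly covered at OSNK D1. The call ended with equal numbers of peaks, when OSNK D1 had 2.10% and MEF 2.03%, and OySyNyK D1 then lay below MEF with 1.24%. Bases covered at D1 only, by either method or both, made up 7928 of the 15564 bp covered in any list, which is 50.9%, against 10.1% over the genome. In the Col1a1 window they made up 5.03% and in the Col1a2 window 27.3%. These shares rested in part on OSNK D1, the longest list. Without it, a choice made after seeing the data, D1-only bases were 3054 of 10690 bp, or 28.6%, in the Col3a1 and Col5a2 window, 1.77% in the Col1a2 window and 3.54% in the Col1a1 window, against 4.35% over the genome. Without OySyNyK D1 they were 49.0%, 27.3% and 4.4% in these windows, against 7.77% over the genome.

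**Figure D2:**
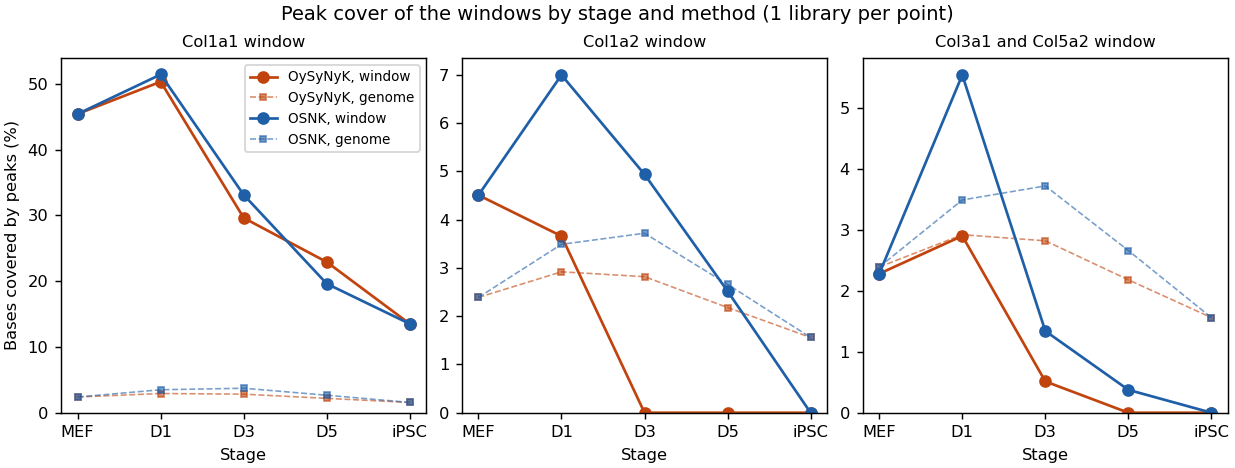
Share of each window's bases covered by peaks, in percent, at each stage from MEF to iPSC. OySyNyK and OSNK are separate lines, with genome-wide cover of the same lists dashed, and the y axes differ between panels. Both lines start from the same MEF library and end on the same iPSC library, whose title carries the OySyNyK factor names. The Col1a1 window stays above genome-wide cover at every stage. The Col1a2 window lies below it with OySyNyK from D3 on, at OSNK D5 and in iPSC. The Col3a1 and Col5a2 window lies above it at OSNK D1 only.

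Peaks of the 8 lists in the Col1a1 window joined into 8 merged regions, and their fates differed. Only 1 of them, chr11:94810869-94813262, held a peak in every list. Its score was 684 in MEF and 384 in iPSC. Over the 3 days it was 976, 465 and 403 with OySyNyK and 825, 628 and 436 with OSNK. Scores were lower at D3, D5 and in iPSC, but so were those of the whole lists. Within its own list the peak ranked high everywhere: 0.566% of iPSC peaks and 2.36% of MEF peaks scored as high or higher, and in the intermediates this share lay between 0.217% at OySyNyK D1 and 1.03% at OySyNyK D3. The bases common to all 8 lists formed a single run of 1717 bp at chr11:94811337-94813053. Bases common to all lists made up 8.55% of those covered in any list in this window and 1.37% over the genome. Dense cover shares more bases by placement alone, and 66.9% of this window was covered in some list. The part of density in this share, and in those of other patterns shared by several lists below, was not tested. Of the 15 MEF peaks in the 3 windows, this was the only one overlapped in all 7 other lists, as were 7.88% of all MEF peaks.

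The regions of the best-scoring and the widest MEF peak of the window were covered over fewer bases in every later list than in MEF. Both peaks were picked for their MEF values, so lower values in other lists were partly set by that choice. Region values include bases outside the MEF peak. The best-scoring MEF peak, chr11:94802427-94805962, was 3536 bp wide with a score of 807. Its region was covered over 3058, 1318 and 826 bp on the 3 days of OySyNyK, over 3122 and 1043 bp at D1 and D3 of OSNK and over 740 bp in iPSC, and OSNK D5 had no peak there. The best scores in the region were 258, 173 and 119 with OySyNyK, 305 and 56.5 with OSNK, and 54.3 in iPSC. A stretch of 740 bp inside it, chr11:94804061-94804800, was covered in every list but OSNK D5. The widest MEF peak, chr11:94806469-94810857 with 4389 bp and a score of 488, was split at D1 into 3 peaks with OySyNyK and 2 with OSNK. At D3 only OSNK had a peak there, 808 bp wide and scoring 61.5, and neither method had one at D5. The iPSC list held a peak of 750 bp within it, chr11:94809464-94810213, with a score of 55.7. The OSNK D3 and iPSC scores there lie close to the lists' minimum of 50. Bases covered in MEF and at D1 but in no later list made up 21.6% of the covered bases of the Col1a1 window, 16.6% in the Col3a1 and Col5a2 window and 10.2% in the Col1a2 window, against 5.24% over the genome.

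A stretch near the end of the window was covered in all 6 intermediates and in neither end state. It lay at chr11:94815307-94816410 and was 1104 bp long. The best peak of its region scored 412, 210 and 139 over the days of OySyNyK and 505, 189 and 128 over those of OSNK. In MEF the nearest peak of that region, chr11:94816988-94817685, scored 70.0 and did not reach the stretch, and iPSC had no peak in the region. At D1 the peak over the stretch was among the best 3.80% of the OySyNyK list and the best 4.01% of the OSNK list. Bases of this pattern made up 5.59% of the covered bases in the window and 2.22% over the genome. The other windows held none.

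The region that holds this stretch and a further pair had peaks in MEF and all 6 intermediates and none in iPSC. Of that pair, at chr11:94795093-94796431 the score was 137 in MEF, 165, 108 and 126 over the days of OySyNyK, and 280, 54.7 and 78.7 over those of OSNK. The other, at chr11:94817873-94820094, scored 285 in MEF, 439, 193 and 60.7 with OySyNyK, and 939, 389 and 320 with OSNK. The methods thus stood in opposite order in this pair at D5, with the first scoring higher with OySyNyK and the second higher with OSNK. The MEF peak of the second region crosses the window's edge, and cover was counted inside the window only. Bases of MEF and all intermediates without iPSC made up 8.11% of the covered bases of the window and 3.23% over the genome.

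The other regions of the Col1a1 window had no MEF peak. The region at chr11:94790830-94792493 was listed at D1 and D3 of OySyNyK and at D1 and D5 of OSNK, with best scores of 126 and 86.4 and of 82.0 and 110, and in neither end state. The region at chr11:94797334-94798178 was found in iPSC alone, with 845 bp and a score of 64.5, below the iPSC median of 71.0. Of the 4 iPSC peaks in the window, 3 overlapped a MEF peak, which is 75.0% (exact 95% interval 19.4 to 99.4), against 21.7% of all iPSC peaks. The interval included the share of the whole iPSC list, so a difference was not detectable with 4 peaks. MEF peaks also covered 45.4% of this window against 2.39% of the genome, which makes overlap by placement alone more likely here. The part of that density in the share was not tested.

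**Figure D3:**
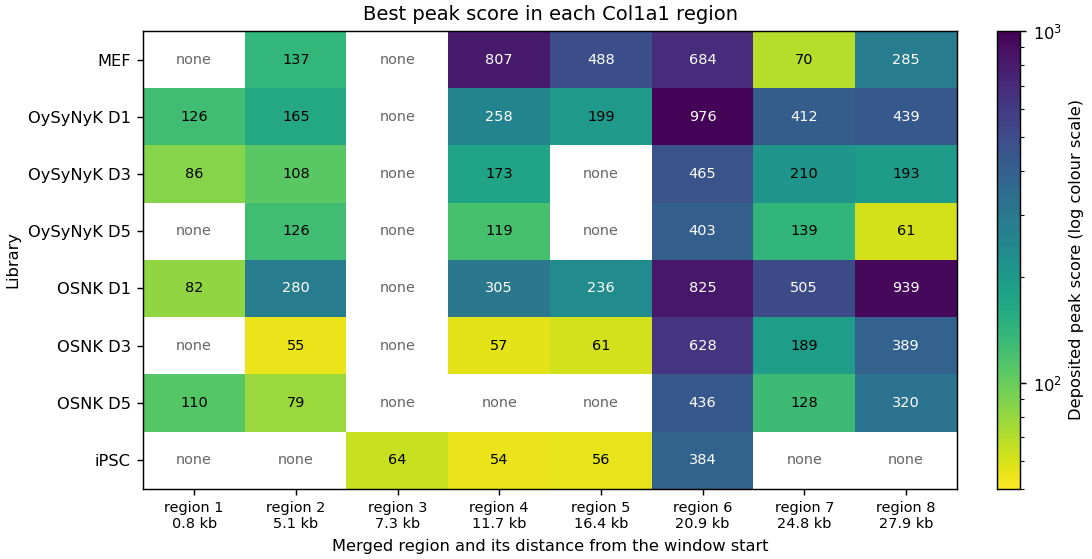
Best deposited peak score in each of the 8 merged regions of the Col1a1 window (columns, with distance from the window start) in each library (rows), on a log colour scale; "none" marks a list without a peak. Region 6 is filled in all 8 libraries with scores of 384 to 976, and region 3 in iPSC alone.

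In the Col1a2 window the peaks joined into 7 merged regions, none of which was found in more than 4 lists. The best MEF peak, chr6:4480727-4481596, scored 162 in MEF, and its region scored 115 at OySyNyK D1 and 207 and 72.6 at D1 and D3 of OSNK. The other MEF peak, chr6:4469378-4470627, scored 62.6 and was overlapped at OSNK D1 only, with a score of 89.4. Neither MEF peak was overlapped at D5. Toward the end of the window, chr6:4492210-4492862 was listed at OySyNyK D1, OSNK D3 and OSNK D5 with scores of 55.7, 97.2 and 89.4, and chr6:4493460-4494134 at OySyNyK D1, OSNK D1 and OSNK D5 with scores of 81.5, 72.8 and 51.6. The 2 peaks left at OSNK D5 were thus in regions without a MEF peak.

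The Col3a1 and Col5a2 window held 23 merged regions, of which 7 had a MEF peak and none an iPSC peak. The region found in most lists, chr1:45365588-45366536, scored 104 in MEF, 168 and 63.3 at D1 and D3 of OySyNyK, and 170 and 100 at those of OSNK. A group of 3 regions from chr1:45411461 to 45416617 held the best MEF peak of the window, with a score of 163, and was last listed at OySyNyK D3 with a score of 54.5 and at OSNK D1. The window's distal end held a group of 11 regions within 32.8 kb, from chr1:45529401 to 45562171. That group had 3 peaks in MEF, 5 at OySyNyK D1, 11 at OSNK D1, 1 at OSNK D3 and 2 at OSNK D5. The grouping joins regions at most 10 kb apart and was chosen after their positions were seen.

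Many regions of the Col3a1 and Col5a2 window were weak or in a single list. OSNK D1 alone held 8 of the 23, with scores of 52.1 to 86.6 and a median of 55.7, against a median of 105 over that list. A further 5 regions without a peak in MEF or iPSC were listed at D1 with both methods, among them chr1:45436761-45437646 with scores of 115 with OySyNyK and 130 with OSNK, and chr1:45480659-45481346 with 113 and 130. Among peaks scoring 100 or more, the window held 4 peaks at OySyNyK D1, 8 at OSNK D1, 2 at OSNK D3 and 2 in MEF, and no peak in the other lists.

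MEF peaks of the 3 windows were mostly found again at D1 and mostly not at D5. Of the 15, 14 were overlapped at OySyNyK D1, which is 93.3% (exact 95% interval 68.1 to 99.8), against 70.4% of all MEF peaks, and 13 at OSNK D1, which is 86.7% (59.5 to 98.3), against 74.5%. At D3 the counts were 7 with OySyNyK (46.7%, against 49.5% of all MEF peaks) and 8 with OSNK (53.3%, against 50.5%). At D5 they were 5 with OySyNyK (33.3%, interval 11.8 to 61.6, against 36.3%) and 3 with OSNK (20.0%, interval 4.33 to 48.1, against 41.3%). In iPSC, 3 were overlapped, which is 20.0%, against 17.4% of all MEF peaks. Each interval, which covers counting error only, included the share of the whole MEF list. A difference from other MEF peaks was thus not detectable with the 15 peaks pooled over the windows. With equal numbers of peaks the D1 shares were 71.4% (10 of 14 peaks) with OySyNyK and 64.3% (9 of 14) with OSNK, and the OSNK D3 share was 28.6%, and with an overlap of at least 50% of the MEF peak the OySyNyK shares at D3 and D5 were 26.7% and 20.0% and the iPSC share 6.67%.

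The windows differed among themselves behind these sums. At OSNK D3, 6 of 6 MEF peaks at Col1a1 were overlapped (interval 54.1 to 100, against 50.5% of all MEF peaks). At Col3a1 and Col5a2 it was 1 of 7 (0.361 to 57.9). At OSNK D5 the interval at Col3a1 and Col5a2, for 0 of 7, was 0 to 41.0, just below the whole-list share of 41.3%. The other intervals by window included the whole-list share. No correction was made for the number of windows and lists. Of the 6 MEF peaks at Col1a1, 5 were overlapped at OySyNyK D5 and 3 at OSNK D5. This order rested on the 1 bp rule: with an overlap of at least 50% of the MEF peak, each D5 list overlapped 3 of the 15 MEF peaks in the 3 windows. None of the 2 at Col1a2 and none of the 7 at Col3a1 and Col5a2 was overlapped at either D5. Over all MEF peaks, 50.0% were overlapped in neither D5 list. Counted in bases, 36.2% of the MEF cover of the Col1a1 window remained covered at OySyNyK D5 and 27.2% at OSNK D5, against 30.2% and 32.9% over the genome. In iPSC it was 23.5%, against 13.3% over the genome. The part of the window's dense cover in these shares was not tested.

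**Figure D4:**
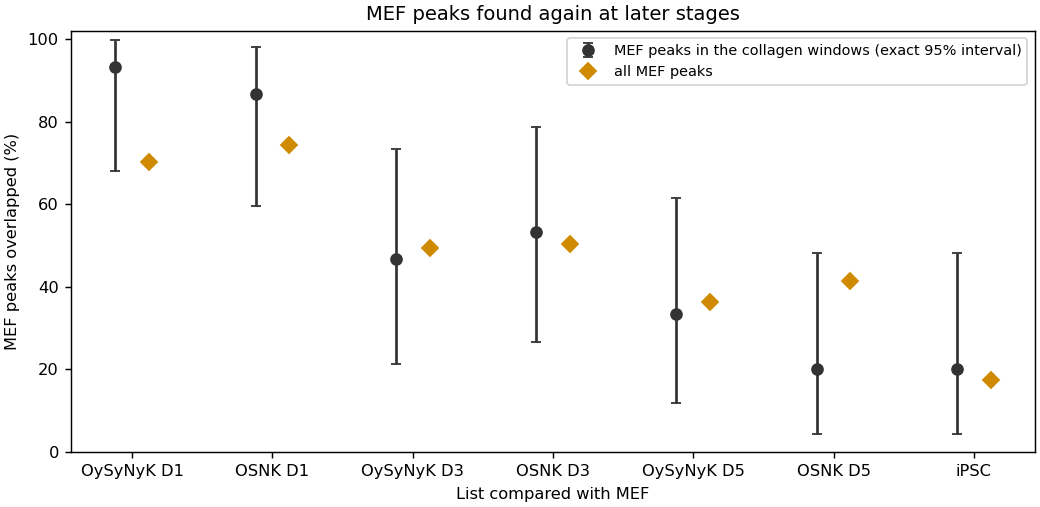
Share of MEF peaks overlapped by at least 1 bp in each later list, in percent, for the 15 MEF peaks of the windows (circles, exact 95% intervals for counting error) and for all 65776 MEF peaks (diamonds). The window values go from 93.3% at OySyNyK D1 and 86.7% at OSNK D1 to 20.0% in iPSC, and each interval includes the value of the whole list.

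Some peaks of the windows lay in neither end state. Of the OySyNyK peaks in the windows, 9 of 26 at D1, 3 of 10 at D3 and 0 of 5 at D5 overlapped neither a MEF nor an iPSC peak, against 45.2%, 51.8% and 46.6% of the whole lists. Of the OSNK peaks, 22 of 37 at D1, 5 of 13 at D3 and 6 of 9 at D5 did so, against 52.2%, 55.2% and 58.8%. At D5 the OSNK peaks of this kind lay in all 3 windows, 2 in each.

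Between the methods, the Col1a1 window shared more of its covered bases than the other windows did. At D1, cover of the Col1a1 window was 50.3% with OySyNyK and 51.4% with OSNK, and 85.8% of the bases covered by either method were covered by both, against 47.8% over the genome. At D3 and D5 the shared part was 63.6% and 54.9%, against 38.0% and 33.0%. In the Col1a2 window the shared part was 29.9% at D1, and OySyNyK had no peak later. In the Col3a1 and Col5a2 window it was 34.9% at D1 and 8.80% at D3. Dense cover shares more bases by placement alone, and these baselines are unlike in density. At D1 the lists covered 50.3% and 51.4% of the Col1a1 window, but 2.92% of the genome with OySyNyK and 3.49% with OSNK. The part of density in the contrast was not tested.

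OySyNyK cover was lower than OSNK cover in all 3 windows at D1 and D3 with all peaks. At Col1a1 the order turned with equal numbers of peaks, to 41.2% with OySyNyK and 37.8% with OSNK at D1 and to 29.6% and 23.6% at D3. At D1 no window passed 2-fold, with ratios of OySyNyK over OSNK of 0.977 at Col1a1, 0.522 at Col1a2 and 0.523 at Col3a1 and Col5a2. Of the tiles of 30, 47 and 210 kb covered at OSNK D1, 32.8%, 31.8% and 28.3% were lower by 2-fold or more or without cover with OySyNyK. At D3, 2 of the 3 windows passed, as did 39.9%, 38.2% and 35.0% of tiles. Each D3 call ended under an alternative and stood under others. With peaks of 500 bp the Col3a1 and Col5a2 window had 0.714% cover with each method, while the Col1a2 window had 0% with OySyNyK and 3.19% with OSNK. Among peaks scoring 100 or more the Col1a2 window had no peak with either, while the Col3a1 and Col5a2 window had 0% and 0.996%. With equal numbers of peaks both calls stood, with 0% with OySyNyK and 1.28% and 0.996% with OSNK at Col1a2 and at Col3a1 and Col5a2. At D5 the windows of Col1a2 and of Col3a1 and Col5a2, which had also passed at D3, had no OySyNyK peak. The Col1a1 window did not pass, with 22.9% with OySyNyK and 19.6% with OSNK. Of the tiles of 30, 47 and 210 kb covered at OSNK D5, 42.5%, 40.4% and 35.9% were lower by 2-fold or more or without cover with OySyNyK. Among peaks scoring 100 or more, the Col3a1 and Col5a2 window passed 2-fold at D1, with 1.0% with OySyNyK and 2.46% with OSNK. Neither method then had a peak at D5 in that window or in the Col1a2 window. With equal numbers of peaks, the Col1a2 window at D1 had 1.5% with OySyNyK and 1.6% with OSNK. Over the 3 days OySyNyK lists covered 0.836, 0.757 and 0.821 times the sequence of their OSNK counterparts, and the part of that in the window differences was not tested.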

How the data were processed

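5hmC-bearing DNA was captured chemically and sequenced, per the labels' protocols, in 1 library each of MEF, 6 intermediates and iPSC. The deposited files are peak lists with a score for each peak, called per sample; the submitters' processing notes name Bowtie and MACS without version, settings or control. The builds named there, hg18 and NCBI36, are human, while the lists hold mouse chromosomes; window coordinates are mm9 and were applied to the lists as they stand. Positions count from 1.

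Software was pandas 2.3.3, numpy 2.4.6 and scipy 1.17.1 under Python 3.11.15. A peak belonged to a window when it shared 1 bp with it; cover was counted inside the window. Peaks overlapped when they shared at least 1 bp. Peaks of all lists were merged into regions. Whole chromosomes were cut into tiles of each window's length as background, with a 2-fold line. Shares have exact (Clopper-Pearson) 95% intervals. Interval code was tested on simulated data and against bedtools 2.31.1. Figures used matplotlib 3.10.9.

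Members, windows and lists were chosen with earlier results of these data known. Peaks named were, by rule, the best-scoring and widest per window and library and the merged regions in all lists, with a MEF peak or with an iPSC peak; those in intermediates only were named after their values were seen. Planned gene-body values for other collagen genes were left out for want of an mm9 annotation. Alternatives were equal numbers of peaks (54938 per list), scores of 100 or more, peaks of 500 bp, peaks within 1 kb merged, windows widened by 10 kb on each side and an overlap of at least 50% of the MEF peak. Leaving out each D1 list and pairing the methods by day were added after seeing the data.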

Additional observations from a re-analysis of the deposited data

Results flagged for a closer look

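In the Col1a2 window the methods stood on opposite sides of MEF on 2 days, with 1 library per point and no test of the difference. At D1, cover relative to MEF differed by -0.855 percentage points with OySyNyK and by 2.49 with OSNK, so that OySyNyK minus OSNK was -3.35. At D3 the values relative to MEF were -4.51 with OySyNyK, which had no peak, and 0.426 with OSNK, so that OySyNyK minus OSNK was -4.94. With equal numbers of peaks, cover was 1.5% at OySyNyK D1, 1.6% at OSNK D1, 0% at OySyNyK D3 and 1.28% at OSNK D3, against 4.51% in MEF, and both methods were then below MEF on both days.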

How the results depend on the processing

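Cover in iPSC stayed below MEF in all 3 windows under all 5 alternatives run for it. At Col1a2 and at Col3a1 and Col5a2 the iPSC list held no peak, so only widened windows could readily have turned the direction there. For those windows the other alternatives are therefore no check of direction. The difference was -3.33 percentage points at Col1a1 and -2.13 at Col1a2 with peaks of 500 bp, and -1.85 at Col1a2 and -0.727 at Col3a1 and Col5a2 with a score of at least 100. OySyNyK minus OSNK cover over the 3 windows together was -2.60, -1.78 and -0.340 percentage points at D1, D3 and D5. With a score of at least 100 it was -1.44, -0.851 and 0.416, and with equal numbers of peaks -0.288, -0.317 and 0.120, so the D5 direction turned under both; the cause was not tested. With peaks of 500 bp it was -0.523 at D3 and -0.697 at D5, and at D5 it was -0.548 with peaks within 1 kb merged and -0.109 with widened windows. Of 42 shares of MEF peaks recomputed, 41 stayed within the interval of the value reported, and OSNK D1 reached 100% (8 of 8 peaks) with a score of at least 100. With 15 peaks the intervals are wide, so shares could move far and still be counted as staying. At OSNK D3 the interval was 26.6 to 78.7, and the share went from 53.3% to 28.6% with equal numbers of peaks. Cover is a length with no counting interval, so a difference was taken as moved when it changed by more than 1.5 times. No paired analysis was possible because the groups compared share at most 1 replicate number. Pairing the methods by day instead was a choice made after seeing the data. It takes the days as replicates, which successive days with 1 library each are not. The mean OySyNyK minus OSNK difference was -1.57 ± 1.15 percentage points (SD, 3 pairs). The exact two-sided sign-flip permutation p was 0.25, the smallest that 3 pairs allow, so this test could not decide whether the methods differ. Depth is unknown, and lists end at a score of 50, so weak 5hmC in shorter lists is missed.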
